A study of Mus musculus with 92 samples.

Results

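Myeloid lineage transcription factors are the DNA-binding proteins that steer blood progenitors toward granulocytes, monocytes and macrophages. The 9 described here are Gata2, Myb, Gfi1, Cebpa, Cebpb, Cebpe, Klf4, Spi1 and Runx1. They were taken by symbol from the deposited expression table, where 9 of 9 were found among 29956 named genes.

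As background, commitment of a blood progenitor to a myeloid fate depends on a small group of such factors that switch on lineage genes and restrain those of other fates. Gata2, Myb and Runx1 act early, in stem and progenitor cells. Spi1 (PU.1) and the C/EBP proteins then drive granulocyte and macrophage programs, with Gfi1 and Cebpe on the granulocyte side and Klf4 on the monocyte side, and macrophages of the brain (microglia) also need Spi1 and Runx1.

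RNA was sequenced in bulk from mouse cells of the FVB strain, in 92 libraries of 25 groups. BM progenitors (lineage-depleted cells) and BM monocytes were isolated from WT bone marrow, with 3 libraries each, and BMD macrophages (3) were grown from marrow for 7 days in vitro with the growth factor M-CSF. ER-Hoxb8 progenitors (3) are marrow cells of a Cas9 mouse held immature by an estrogen-regulated Hoxb8 transgene and kept in estradiol and GM-CSF. They were differentiated with M-CSF and without estradiol for 4 days (3) and for 7 days into ER-Hoxb8 macrophages (3). Microglia-like cells (MLC) are cells re-isolated from the brains of Csf1r KO hosts, which lack microglia of their own, after intracranial injection as pups: 6 libraries of BMD MLC and 6 of ER-Hoxb8 MLC, beside 9 of microglia from uninjected WT mice. Brain cells were sorted as CD45+/CD11b+, a gate that other myeloid cells of blood and brain also pass. ER-Hoxb8 lines with a non-targeting guide (NTC) or an Adar1 guide were sequenced as progenitors and as macrophages at 7 days: NTC (3 and 3), Adar1 KO by sgRNA 1 (3 and 3) and Adar1 KO by sgRNA 2 (3 and 5). The lines were made from ER-Hoxb8 cells titled Cas9 het (heterozygous), so all carry the Cas9 allele and the Hoxb8 transgene. Each edited line is a pool for which no clone is stated. Macrophages of the NTC and sgRNA 1 lines were also grown with baricitinib, a JAK inhibitor, at 0, 0.0006, 0.016, 0.4 and 10 uM as titled, with 3 or 4 libraries a dose, 33 in all. The treatment protocol gives higher values for the doses titled 0.0006 and 0.016 uM, so these are names of groups rather than settled concentrations.

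Values are log2 CPM, where CPM is the count of a gene scaled to library size with TMM factors, as deposited. The columns fall into 6 sets by their lowest value, and levels were compared only inside a set: marrow cells with ER-Hoxb8 progenitors and day 4 (12 libraries), in vitro macrophages with cells from brain (27), NTC with sgRNA 1 (11), sgRNA 2 (8), baricitinib (33) and NTC macrophage replicate 2 alone. Depth, in mega-counts (M), was estimated from the smallest steps between values: 34.0 to 48.7 M in the 12 libraries, 8.6 to 43.3 M in the 27, 17.1 to 42.0 M in the 11, 18.4 to 27 M in the 8, 6.1 to 33.8 M in the 33, and 19.5 M in the lone library. For precision, 3 counts were taken as the floor of detection, and floors cover counting error only. Cebpb, Spi1 and Runx1 were above 3 counts in 92 of 92 libraries, Cebpe in 90 and Klf4 in 88. Myb was above it in 53, Cebpa in 46, Gfi1 in 32 and Gata2 in 16. For Cebpa any library above 0 clears this floor, since its smallest step is worth 5.2 counts. The labels do not show that replicates other than the independent ER-Hoxb8 lines are separate cultures, so a p-value measures only the spread between libraries.

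Marker genes were summed as CPM per library to check the labels. The 3 progenitor genes, led by Kit, summed to 242 to 453 in BM progenitors and to 77.6 to 127 in BM monocytes. In ER-Hoxb8 progenitors that sum was only 10.7 to 33.1. The 4 monocyte genes, led by F13a1, reached 9912 to 12269 in BM monocytes against 983 to 1285 in BM progenitors. The 6 macrophage genes, which include Csf1r and Emr1 (F4/80), summed to 8252 to 10773 in BMD macrophages and 7559 to 10732 in ER-Hoxb8 macrophages. Other lineages were present as well. The 5 mast cell and basophil genes, led by Prss34, summed to 3025 to 4657 in BM progenitors and 3761 to 5039 in BM monocytes. The 10 neutrophil lineage genes summed to 5836 to 15690 in BM monocytes and 4439 to 33066 in BMD MLC. The 4 erythroid genes summed to 1014 to 1968 in BM progenitors, 44.7 to 151 in BM monocytes and 1.46 to 2.74 in ER-Hoxb8 progenitors, and the 4 B cell genes to 140 to 835, 15.5 to 28.2 and 0.814 to 17.7.

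The target of the guides was read first. Adar (Adar1) stood at 4.20, 3.42 and 4.28 in NTC progenitors and at 4.36, 4.23 and 4.24 in sgRNA 1 KO progenitors. In macrophages it was 5.73 and 5.67 in NTC (5.86 in the lone library) and 6.96, 7.15 and 7.01 in sgRNA 1 KO. The sgRNA 2 KO libraries gave 4.35, 4.56 and 4.36 in progenitors and 7.02, 7.00, 7.02, 7.03 and 6.99 in macrophages. The sgRNA 2 set holds no NTC cells to compare with. In these libraries the transcript was thus not below NTC in the sgRNA 1 KO, and an edit of the gene cannot be checked from its RNA level here. At 0 uM baricitinib it was also not lower in KO: Adar was 5.12, 4.94 and 4.69 in NTC and 7.42, 6.52 and 6.37 in KO, and at 10 uM it was 3.70, 3.64 and 3.22 in NTC and 1.55, 2.15, 2.91 and 2.03 in KO, where 4 of 4 KO libraries were lower. Among KO libraries at 0.4 uM, replicate 2 stood at 7.38 beside 4.12 and 4.21. No library at 0.4 uM was part of a contrast.

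Some libraries stood apart from their groups. ER-Hoxb8 progenitor replicate 2 had a macrophage sum of 4813 CPM, against 1820 in replicate 1 and 426 in replicate 3, and a neutrophil lineage sum of 53.4, against 351 and 4452. The ER-Hoxb8 MLC columns carry different names, GFPHox in replicates 1 to 3 and WTHox in replicates 4 to 6. Their neutrophil lineage sums were 768, 238 and 331 CPM in GFPHox and 17927, 41264 and 3361 in WTHox. Microglia replicates 8 and 9 are named YSWT, and replicate 8 gave the lowest Spearman correlation inside any group, 0.675. BMD macrophage replicate 3, whose column is named wBM rather than Mac, held a monocyte sum of 1133 CPM and a proliferation sum of 1056. Results that rest on these libraries are given with and without them. Identical libraries numbered 0.

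Promoters of the members were read from RefSeq (build GRCm38.p6, 250 bases before to 50 after a start) to show what letters the factors could meet at each other's genes. Of the 9 members, 7 matched with 10 promoters, and Cebpe and Spi1 had none. Core motifs were searched on both strands, with the share of all 32851 promoters that hold each: AGATAA for Gata2 (11.2%), CAACTG for Myb (13.7%), AAATCA for Gfi1 (14%), TTGCNNAA for the C/EBP proteins (10.8%), GGGNGTGG for Klf4 (17.6%), GAGGAA for Spi1 (28.3%) and TGTGGT for Runx1 (16.8%). Shown, with matches in capitals, are Myb (chr10:21160935-21161234, minus strand) and Gfi1 (chr5:107725756-107726055, minus strand), which fell most from progenitor to macrophage, and Runx1 (chr16:92826025-92826324, minus strand) and Klf4 (chr4:55532426-55532725, minus strand), which rose.
Myb: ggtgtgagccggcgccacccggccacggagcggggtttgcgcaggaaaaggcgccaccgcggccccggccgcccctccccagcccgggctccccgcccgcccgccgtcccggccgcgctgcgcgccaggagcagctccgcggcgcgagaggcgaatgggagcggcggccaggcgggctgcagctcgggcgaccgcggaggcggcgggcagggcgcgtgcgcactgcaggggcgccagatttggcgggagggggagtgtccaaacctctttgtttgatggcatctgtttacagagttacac
Gfi1: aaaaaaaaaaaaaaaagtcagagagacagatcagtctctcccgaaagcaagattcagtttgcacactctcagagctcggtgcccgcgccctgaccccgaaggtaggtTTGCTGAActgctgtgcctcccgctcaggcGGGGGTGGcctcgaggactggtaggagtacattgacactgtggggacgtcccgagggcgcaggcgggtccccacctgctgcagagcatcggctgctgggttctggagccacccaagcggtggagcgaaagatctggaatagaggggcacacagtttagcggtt
Runx1: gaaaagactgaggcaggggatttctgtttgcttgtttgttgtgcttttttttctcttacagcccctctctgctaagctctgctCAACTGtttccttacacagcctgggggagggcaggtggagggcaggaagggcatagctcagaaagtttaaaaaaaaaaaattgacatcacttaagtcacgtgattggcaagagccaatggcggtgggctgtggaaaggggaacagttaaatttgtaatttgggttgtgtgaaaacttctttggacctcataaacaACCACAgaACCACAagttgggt
Klf4: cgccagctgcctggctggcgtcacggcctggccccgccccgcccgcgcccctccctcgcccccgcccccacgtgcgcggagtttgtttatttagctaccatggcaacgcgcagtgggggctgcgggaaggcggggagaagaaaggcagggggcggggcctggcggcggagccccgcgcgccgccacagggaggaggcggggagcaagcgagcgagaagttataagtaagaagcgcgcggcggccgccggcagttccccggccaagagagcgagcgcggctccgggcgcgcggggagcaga
The Gfi1 window held TTGCNNAA at -143 and GGGNGTGG at -113 from the start. The Runx1 window held CAACTG at -167 and TGTGGT at 29 and 37, on the other strand. The Myb and Klf4 windows held none of the 7 motifs, which says only that these letters are not in these 300 bases. Among the windows not shown, Cebpb held GGGNGTGG at -95, Cebpa CAACTG at 32, the other Gfi1 start GGGNGTGG at -139 and the other Runx1 start GAGGAA at -46, while both Gata2 windows held none. A match is a description of letters, not a binding site.

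In marrow, Gata2 was at 4.30, 3.68 and 3.82 in BM progenitors and at 4.17, 3.65 and 3.95 in BM monocytes. In ER-Hoxb8 cells it fell to at most 6.6 counts, with -2.02, -4.34 and -2.80 in progenitors and -4.34, -4.34 and -2.12 at day 4, where -4.34 is a count of 0. The marrow groups overlapped, and ER-Hoxb8 cells lay below both. Gata2 also serves mast cells and basophils, and across the 12 libraries it correlated with their marker sum at r = 0.99. The genes most like it were Mcpt8 (0.987), Zfp760 (0.987) and Prss34 (0.984). All 5 genes of that list were above 3 counts in every marrow library. Their part in the Gata2 level was not tested, and in bulk samples fewer cells of a type and less RNA per cell cannot be told apart.

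Myb, which keeps progenitors dividing, stood at 6.12, 6.71 and 6.60 in BM progenitors and at 4.36, 4.40 and 4.61 in BM monocytes. ER-Hoxb8 progenitors gave 3.00, -2.03 and 6.42 and day 4 cells -1.95, -1.06 and 0.64. Monocytes were below every BM progenitor, while the ER-Hoxb8 progenitors ran from the marrow level to below every day 4 library. Gfi1, a repressor needed for granulocytes, was 0.35, 2.76 and 2.97 in BM progenitors, -0.83, -2.50 and 0.32 in BM monocytes, 1.60, -1.19 and 3.92 in ER-Hoxb8 progenitors and -4.34, -1.12 and -1.95 at day 4. Again replicate 2 of the ER-Hoxb8 progenitors was the low one. Genes most like Myb over the 12 libraries were Runx3 (r = 0.977), Gimap9 (0.975) and Prss57 (0.971), and for Gfi1 they were Spag4 (0.956), Rps3a1 (0.946) and Rps6 (0.942).

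Cebpe, which drives late granulocyte genes, was 3.40, 6.18 and 4.79 in BM progenitors and 2.77, 5.00 and 4.64 in BM monocytes. In ER-Hoxb8 progenitors it was 1.08, -0.06 and 3.04, and at day 4 it was -0.91, -0.28 and 1.61. Marrow groups overlapped, and all 3 ER-Hoxb8 progenitors lay below every BM progenitor. Cebpe followed the neutrophil lineage sum over the 12 libraries (r = 0.95), as Myb did (0.93), and Gfi1 less so (0.56). That sum was 6892, 24160 and 20825 CPM in BM progenitors, led by Mpo, and 5836, 15690 and 12861 in BM monocytes. Its part in these levels was not tested. The genes most like Cebpe were Lin28a (0.967), Sox13 (0.963) and Nxpe3 (0.959).

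Cebpa, which starts the granulocyte and monocyte program, was barely read in any group. Its highest estimate in the 92 libraries was 75.0 counts, in BM monocyte replicate 3, and all 3 ER-Hoxb8 progenitors were at 0. In the 46 libraries above 0 its estimated counts came in whole steps of 5.2 to 5.5 (46 of 46 within 0.1 of a step), with 19 libraries at a single step and 14 steps at most. Such a value rests on few counted fragments, so no fold is given for Cebpa.

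Klf4, a monocyte factor, was 1.96, 2.37 and 2.09 in BM progenitors and 4.97, 5.32 and 6.23 in BM monocytes. It spread widely in ER-Hoxb8 progenitors, at 0.97, 3.38 and -2.81, and at day 4, at -2.26, 3.49 and 1.47. Monocytes were above every other library of the set. Cebpb, a C/EBP of activated macrophages, was 0.01, 1.42 and 0.86 in BM progenitors, 2.46, 3.40 and 3.19 in BM monocytes, 3.24, 2.47 and 2.54 in ER-Hoxb8 progenitors and 2.63, 2.85 and 3.62 at day 4. BM progenitors were the lowest group, without overlap. Spi1 was 1.60, 2.23 and 2.21 in BM progenitors, 4.45, 4.29 and 4.28 in BM monocytes, 2.91, 4.62 and 2.30 in ER-Hoxb8 progenitors and 3.41, 4.68 and 3.48 at day 4. BM progenitors were again lowest. Runx1 was 4.03, 4.61 and 4.46 in BM progenitors, 4.77, 4.75 and 5.05 in BM monocytes, 2.07, 4.28 and 1.32 in ER-Hoxb8 progenitors and 4.33, 4.42 and 3.87 at day 4, with low values only in ER-Hoxb8 progenitor replicates 1 and 3. The genes most like these 4 were H2-DMa (0.970), Hopx (0.946) and Gpr35 (0.945) for Klf4, E030030I06Rik (0.960), Slfn2 (0.955) and BC028528 (0.954) for Cebpb, Grk5 (0.975), Lypd5 (0.962) and Hps3 (0.958) for Spi1, and Rdm1 (0.985), Lbh (0.967) and Cpq (0.965) for Runx1.

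**Figure D1:**
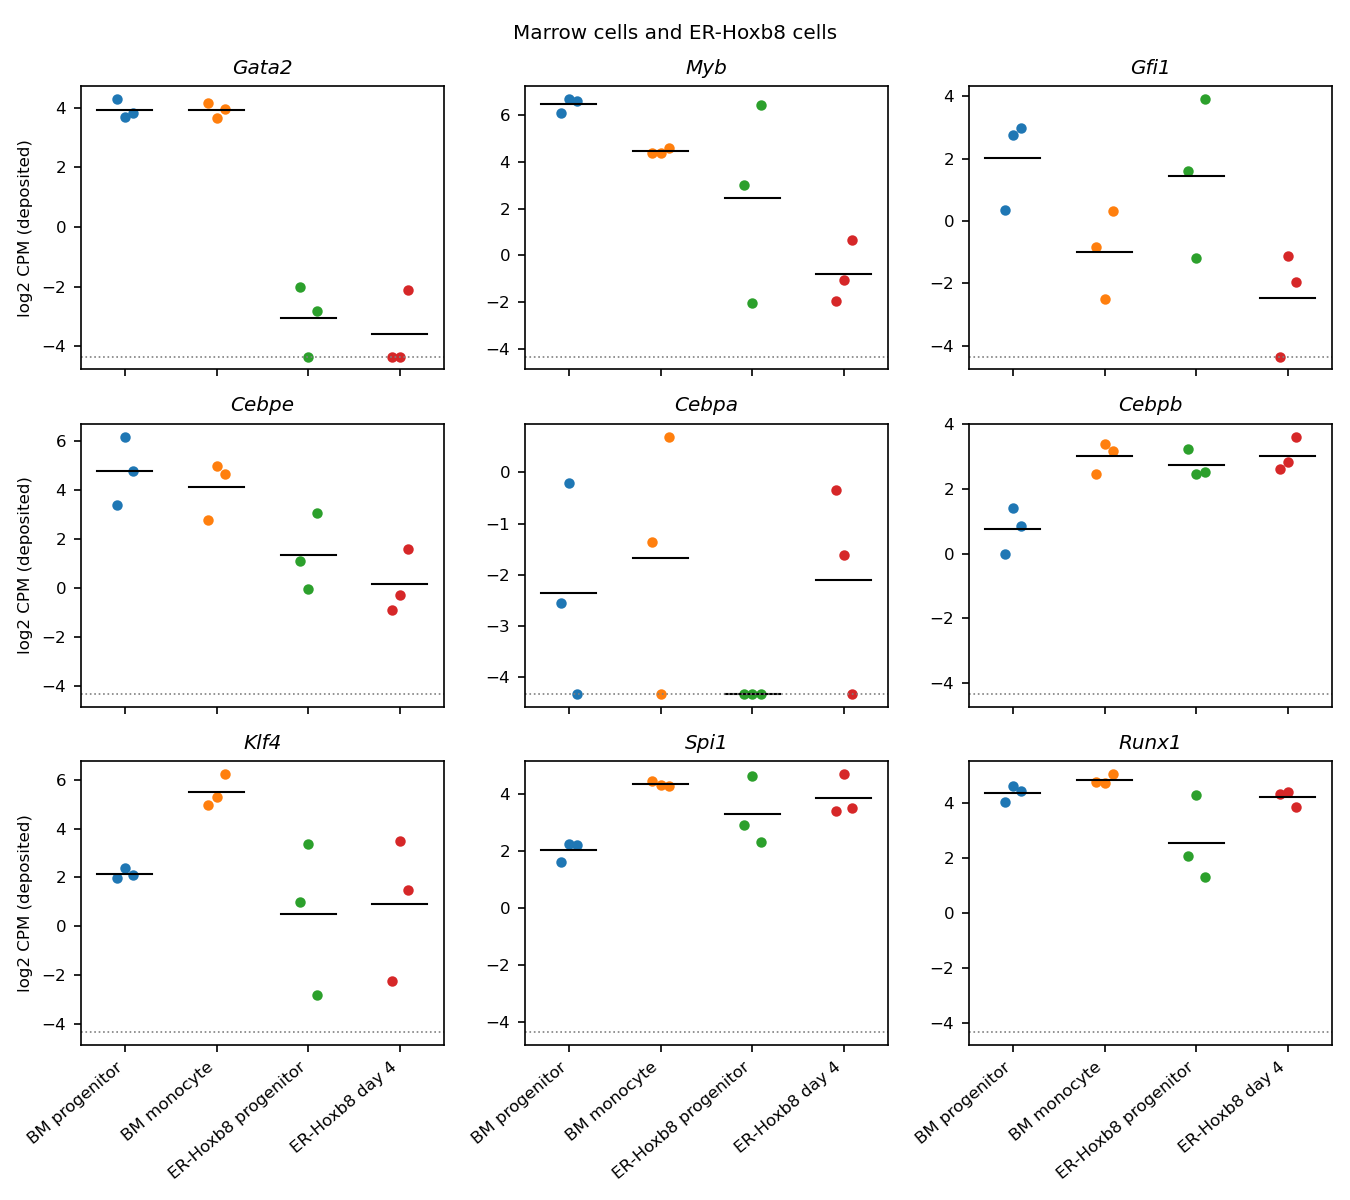
Level of each member (log2 CPM, y axis) in BM progenitors, BM monocytes, ER-Hoxb8 progenitors and ER-Hoxb8 cells at day 4, with a point for each library, a bar at the group mean and a dotted line at a count of 0. Gata2 is at 3.65 to 4.30 in marrow and near the dotted line in ER-Hoxb8 cells, and Myb in ER-Hoxb8 progenitors runs from -2.03 to 6.42.

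The first comparison asks how BM monocytes differ from BM progenitors. Genes were tested with limma where CPM exceeded 1 in at least 3 libraries (6 in the set with brain cells) and called at a Benjamini-Hochberg adjusted p below 0.05. Statements that groups are apart or do not overlap describe the members only, throughout. The share of all genes whose groups are apart was not counted. Of 8 members tested, 2 were higher in monocytes (6.96% of 12134 genes tested were) and 0 were lower (6.79%), with 4 at an unadjusted p below 0.05 and a median log2FC of 0.24 beside -0.09 over all genes. Spi1 rose by 2.33 ± 0.54 (log2FC ± SE; adjusted p 0.0177) and Cebpb by 2.25 ± 0.46 (0.00952), each higher in 3 of 3 monocyte libraries. Spi1 was no longer called without BM progenitor replicate 1 or 3 or any 1 of the BM monocyte libraries, at log2FC 2.12 to 2.42 and adjusted p 0.0537 to 0.0848. Klf4 (3.37 ± 1.51, adjusted p 0.157), Gfi1 (-3.03 ± 1.31, 0.144) and Myb (-2.02 ± 1.54, 0.406) also separated the groups but missed the threshold in the fit that shares its spread with ER-Hoxb8 cells. Fitted on these groups alone they were called, at adjusted p 0.000298, 0.0347 and 0.000329. Gata2 differed by -0.01 ± 0.71.

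Around the members, 2 gene lists were counted. Counts of the list genes are not given, here or below. A large log2FC may rest on a group near the floor that did not pass the filter itself, so it is no exact fold. Of 20 paralogs and partners 19 were tested, and 2 were higher in monocytes (Klf10 1.63, Cbfb 1.39) and 4 lower (Spib -4.21 and Gfi1b -3.22 the lowest), at a median of 0.06. Of 30 other myeloid transcription factors 4 were higher (Id1 2.99, Irf5 2.96) and 4 lower (Myc -2.29, Tal1 -2.12), at a median of 0.64. The erythroid and B cell sums were lower in monocytes too, and their part was not tested.

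ER-Hoxb8 progenitors were compared with the same BM progenitor libraries, to see how the conditionally immortalised cells stand beside marrow. Of 8 members tested, 1 was higher (11.3% of all genes tested were) and 3 lower (14.3%), with 6 at an unadjusted p below 0.05 and a median of -1.72 beside -0.08. Cebpb was higher by 1.98 ± 0.46 (adjusted p 0.00818). Gata2 was lower (adjusted p 3.02e-05). Its log2FC of -6.99 rests on 0 to 6.6 counts in ER-Hoxb8 progenitors, so it is no exact fold. Gata2 passed the filter through marrow cells alone, so a fall was built in. Cebpe was at -3.43 ± 0.97 (0.0226) and Runx1 at -1.81 ± 0.59 (0.0415). Fitted on these groups alone both missed, at adjusted p 0.0554 and 0.157, and without a filter Runx1 missed (0.0625). Groups did not overlap for Cebpb, Gata2 and Cebpe, and they did for Runx1. Without ER-Hoxb8 progenitor replicate 2, Cebpe was at -2.73 (adjusted p 0.0657) and Runx1 kept its call. Leaving out BM progenitor replicate 2 or 3 or ER-Hoxb8 progenitor replicate 1 also lost Cebpe, at adjusted p 0.0670 to 0.0994. Runx1 lost its call without BM progenitor replicate 1, 2 or 3 or ER-Hoxb8 progenitor replicate 1 or 3, at adjusted p 0.0709 to 0.131. Myb (-4.01 ± 1.54, 0.0783) and Spi1 (1.26, 0.112) missed, and they were called without ER-Hoxb8 progenitor replicate 3, at -5.99 (0.00232) and 1.75 (0.0234). Of the paralogs and partners 0 of 19 were higher and 7 lower (Gata1 -10.05, Spib -8.52), with 9 at an unadjusted p below 0.05 in limma, and of the other factors 5 of 30 were higher (Pparg 6.95, Egr2 4.31) and 6 lower (Bcl11a -9.71, Sox4 -5.91). The largest of these list values are no exact folds, as said above. The list medians were -0.77 and 0.11. The erythroid and B cell sums given above also fell between these groups. The mast cell and basophil sum went from 3025 to 4657 CPM to 3.04 to 13.5, while the macrophage sum, with which Cebpb correlated at r = 0.76 over the 12 libraries, went from 129 to 199 to 426 to 4813. The part of these lists was not tested.

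The step from ER-Hoxb8 progenitors to day 4 of differentiation shares those progenitor libraries. By limma 0 of 8 members were called higher and 0 lower, beside 0% and 0% of 12134 genes, while 2 members and 1135 genes had an unadjusted p below 0.05. The median was -0.13 beside -0.01. Gfi1 changed by -3.92 ± 1.31, Runx1 by 1.65 ± 0.59 and Myb by -3.25 ± 1.54, at adjusted p 0.497, 0.497 and 0.531. Progenitors and day 4 cells of a number were taken as one line, since their residuals correlated (r = 0.23, 0.37 and 0.43). Within lines Runx1 and Spi1 rose in 3 of 3 and Cebpe fell in 3 of 3, and with the line as a block 0 members were called. The calls depend on progenitor replicate 2. Without it, though with its day 4 partner kept, 3 members were called, Myb at -5.50 (adjusted p 0.00365), Gfi1 at -5.23 (0.0206) and Runx1 at 2.51 (0.000892), along with 1333 genes in all. In the progenitors kept, the neutrophil lineage sum was 351 and 4452 CPM and the macrophage sum 1820 and 426. At day 4 these sums were 57.8 to 86.8 and 4030 to 7915, and the part of these lists was not tested. Among paralogs and partners, 0 of 19 passed in limma (1 at an unadjusted p below 0.05; median 0.23), and of the other factors 0 of 30 (10 at that p; median 0.00).

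The NTC and sgRNA 1 lines were read as progenitors and as macrophages at 7 days, a longer differentiation. Gata2 was at 3.0 counts or fewer in NTC progenitors, 5.0 or fewer in KO progenitors and 0 in macrophages of both lines. Myb stood at 6.31, 6.54 and 6.55 in NTC progenitors and 6.25, 6.22 and 6.24 in KO progenitors. It was at 0 counts in both NTC macrophage libraries of the set and at 9.3, 0 and 2.2 counts in KO macrophages. Gfi1 was 3.89, 4.10 and 4.16 in NTC progenitors and 3.98, 3.99 and 3.91 in KO progenitors, and at most 2.0 counts in macrophages. Both were thus high in each progenitor library and at or near the floor in each macrophage library. Cebpe was 1.67, 1.73 and 1.93 in NTC progenitors, 0.61, 1.03 and 0.28 in KO progenitors, -0.51 and -0.86 in NTC macrophages and -0.60, 0.06 and -1.15 in KO macrophages. Cebpa was at 16, 10.8 and 5.4 counts in NTC progenitors and at 0 in all 3 KO progenitors. Each step of Cebpa is worth 5.2 to 5.5 counts, so these values rest on few fragments.

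Klf4 was -1.28, -0.85 and -0.92 in NTC progenitors and -1.79, -1.98 and -1.20 in KO progenitors. In macrophages it was 3.02 and 2.87 in NTC and 2.38, 1.59 and 1.34 in KO. The macrophages lay far above the progenitors in either line, with NTC above KO. Cebpb was 2.45, 2.80 and 2.22 in NTC progenitors, 2.92, 2.69 and 2.77 in KO progenitors, 3.16 and 2.99 in NTC macrophages and 3.40, 2.93 and 3.29 in KO macrophages. Spi1 was 3.47, 3.62 and 3.31 in NTC progenitors, 3.50, 3.38 and 3.69 in KO progenitors, 4.97 and 4.86 in NTC macrophages and 4.32, 4.15 and 4.39 in KO macrophages. Spi1 rose in both lines, and the KO macrophages were below both NTC libraries. Runx1 was 3.41, 3.34 and 3.74 in NTC progenitors and 3.29, 3.39 and 3.51 in KO progenitors, then 4.76 and 4.99 in NTC macrophages and 5.13, 4.71 and 4.79 in KO macrophages, where the lines overlapped.

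**Figure D2:**
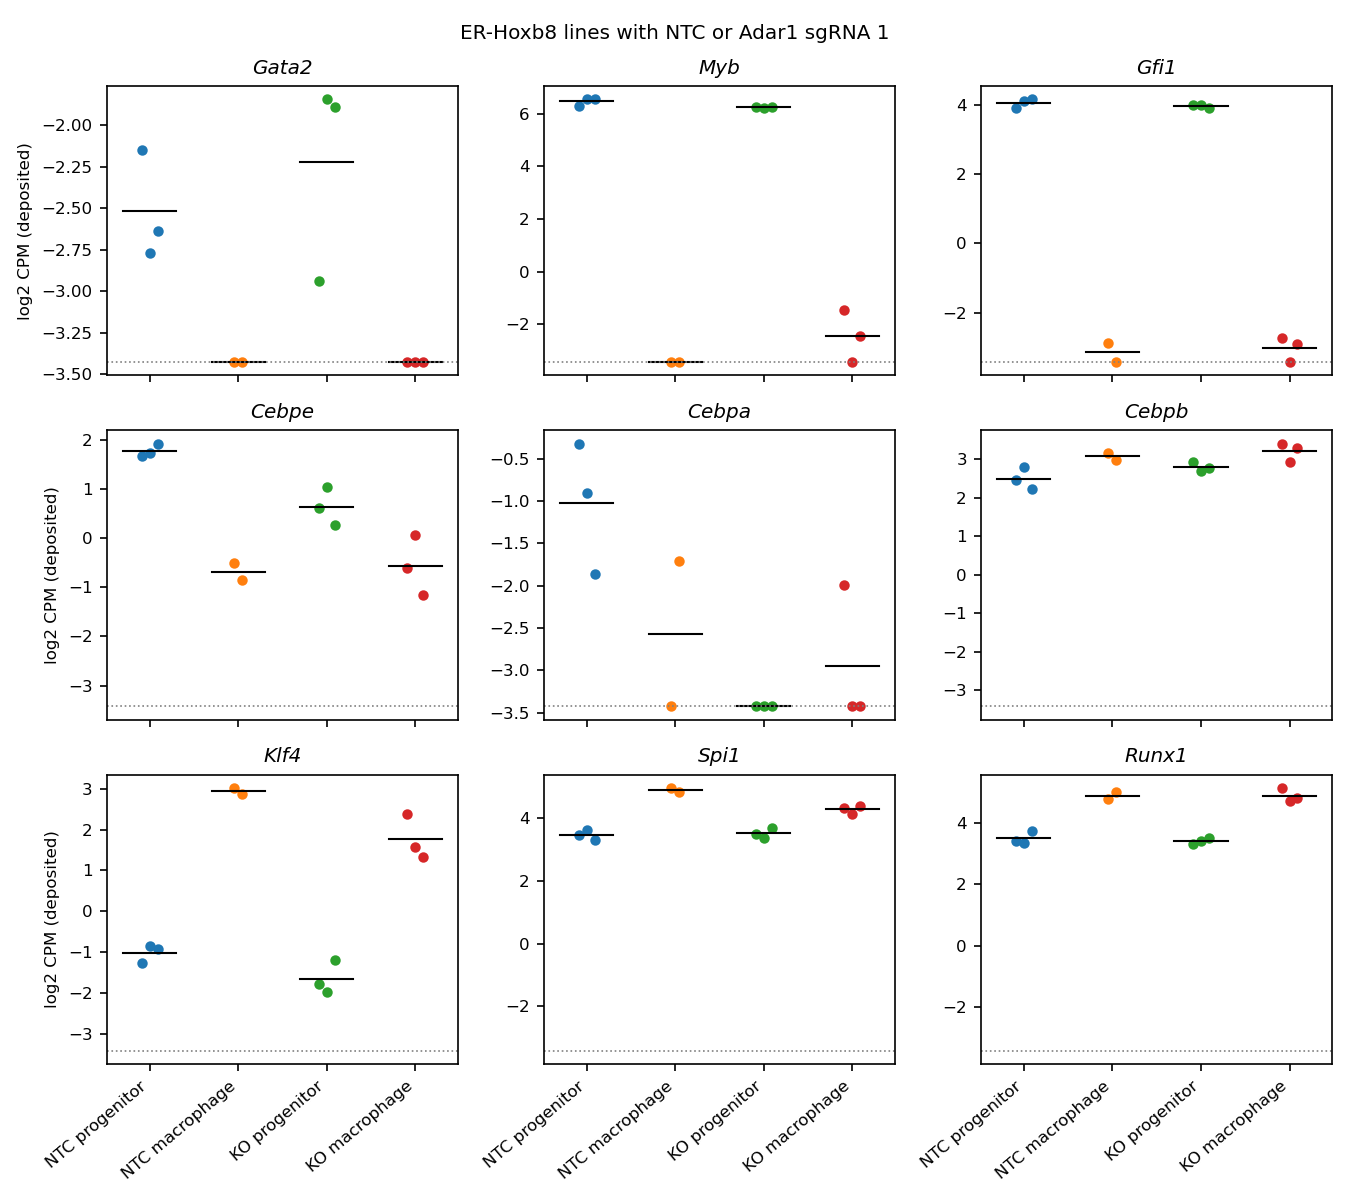
Level of each member (log2 CPM, y axis) in progenitors and macrophages with the non-targeting guide (NTC) or Adar1 sgRNA 1 (KO), with a point for each library, a bar at the mean and a dotted line at a count of 0. Myb and Gfi1 drop to the line or toward it in macrophages, with Myb at up to -1.46 in KO, and Klf4 climbs from below 0 to between 1.34 and 3.02.

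Macrophages were compared with progenitors in the NTC and in the sgRNA 1 cells, to follow differentiation with and without the Adar1 guide. The NTC progenitor columns carry another name (NTC2Prog) than the NTC macrophage columns tested (NTC). The labels do not say whether these NTC cells are one line. In NTC 4 of 7 members tested were higher (33.0% of 11119 genes were) and 3 lower (38.5%), with a median of 0.58 beside -0.08. A bound at 3 counts a library put Myb at least 701-fold lower and Gfi1 at least 131-fold lower (limma adjusted p 2.66e-09 and 1.92e-09), and both passed the filter through progenitors alone, so that a fall was built in. Klf4, which passed through macrophages alone, rose by 3.96 ± 0.37 (2.07e-06). Spi1 rose by 1.45 ± 0.16 (6.67e-06), Runx1 by 1.38 ± 0.18 (2.89e-05) and Cebpb by 0.58 ± 0.22 (0.0317), and Cebpe, which also passed through progenitors alone, changed by -2.46 ± 0.38 (0.000118). Groups did not overlap for any of the 7, in a comparison where 33.0% of all genes were called higher and 38.5% lower. In the fit on these groups alone Cebpb missed, at adjusted p 0.0811. From progenitors to macrophages the neutrophil lineage sum went from 20525 to 28706 CPM to 11.2 to 16.4, the proliferation sum from 1193 to 1397 to 35.7 to 42.9 and the macrophage sum from 213 to 292 to 9566 to 10718, and their part was not tested. Cebpb lost its call without NTC progenitor replicate 1 or 3 or NTC macrophage replicate 1 or 3, at log2FC 0.45 to 0.67 and adjusted p 0.0612 to 0.153. Of paralogs or partners 7 of 15 were higher (Klf6 2.25, Klf13 1.95) and 3 lower (Mybl2 -6.00, Cbfa2t3 -5.72), and of the other factors 10 of 25 higher (Maf 8.39, Id2 7.06) and 8 lower (Mycn -8.87, Tfec -6.96), at medians of 0.64 and 0.27.

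In the sgRNA 1 line 3 of 7 members were higher (34.1% of genes) and 3 lower (37.1%), with a median of 0.41 beside -0.06. Klf4 rose by 3.42 ± 0.33 (adjusted p 2.51e-06), Runx1 by 1.48 ± 0.16 (5.84e-06) and Spi1 by 0.77 ± 0.14 (0.000434). Cebpe changed by -1.21 ± 0.34 (0.00749) and Gfi1 fell at least 151-fold (1.04e-09). Myb was lower too (3.00e-09), with no fold given since 2 of 3 macrophage libraries were at or below 3 counts. As in NTC, Klf4 passed the filter through macrophages alone and Myb, Gfi1 and Cebpe through progenitors alone, so these changes were built in. From progenitors to macrophages the neutrophil lineage sum went from 14992 to 21095 CPM to 72.0 to 85.1. The proliferation sum went from 1277 to 1372 to 167 to 176 and the macrophage sum from 183 to 197 to 6211 to 7173. The part of these lists was not tested. Cebpb, at 0.41 (0.0777), was called only without KO macrophage replicate 2, at 0.55 (0.0393). Of the paralogs and partners 6 of 15 were higher (Ddit3 3.69, Klf6 2.99) and 3 lower (Cbfa2t3 -5.57, Mybl2 -4.90), and of the other factors 10 of 25 higher (Id2 7.69, Maf 6.40) and 9 lower (Mycn -9.14, Tfec -4.71), at medians of 0.69 and 0.08.

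The sgRNA 2 libraries, a set of their own with no NTC cells, were tested apart. Klf4 was at 0 to 3.0 counts in progenitors and at 0.98, 0.45, 1.00, 0.95 and 1.57 in macrophages, at least 17-fold higher (adjusted p 1.75e-06). Myb was 5.89, 6.17 and 5.92 in progenitors and at 2.2 to 3.4 counts in macrophages. Gfi1 was 2.78, 3.44 and 2.98 in progenitors and at 4.3 counts or fewer in macrophages. Runx1 rose from 1.71, 2.66 and 2.78 to 4.60, 4.58, 4.65, 5.03 and 4.47, and Spi1 from 3.46, 3.49 and 3.72 to 4.63, 5.38, 5.03, 5.19 and 5.24. These 5 members kept apart the groups in every library. Cebpb did so too, rising from 2.93, 3.32 and 3.07 to 3.75, 3.46, 3.70, 3.66 and 4.05. Cebpe overlapped, at 0.07, 0.22 and 0.84 in progenitors and -1.26, -0.35, -0.32, 0.27 and 0.37 in macrophages. Of 7 members tested 4 were higher (39.6% of 10776 genes) and 2 lower (41.5%), with a median of 0.61 beside -0.03. Runx1 gave 2.29 ± 0.23, Spi1 1.54 ± 0.16 and Cebpb 0.61 ± 0.15, while Cebpe, at -0.63 ± 0.39, missed (0.155). Gfi1 and Myb were lower (limma adjusted p 3.34e-07 and 5.70e-11), with no fold given since 4 of 5 macrophage libraries were at or below 3 counts for each. Myb and Gfi1 passed the filter through progenitors alone and Klf4 through macrophages alone, so a change was built in. The neutrophil lineage sum went from 4084 to 4716 CPM in progenitors to 25.2 to 31.2 in macrophages. The monocyte sum went from 1100 to 1186 to 166 to 204 and the macrophage sum from 344 to 354 to 6087 to 6481. The median proliferation sum went from 1384 to 277. The part of these lists was not tested. Without any 1 of the progenitor libraries Myb and Gfi1 no longer met the filter and 4 members were called. Among paralogs and partners, 8 of 15 were higher (Klf6 3.99, Ddit3 2.76) and 3 lower (Cbfa2t3 -3.84, Runx3 -3.84), and of the other factors 12 of 24 higher (Id2 5.25) and 10 lower (Mycn -7.92, Tfec -5.35), at medians of 0.75 and 0.66.

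KO and NTC macrophages of the sgRNA 1 set, already used above, were then set against each other to read the effect of the guide. Of 7 members 0 were higher (14.4% of genes were) and 2 lower (7.32%), with 3 at an unadjusted p below 0.05 in limma and a median of 0.12 beside 0.05. Klf4 was lower at -1.18 ± 0.37 (adjusted p 0.0448) and Spi1 at -0.63 ± 0.16 (0.0158), each lower in 3 of 3 KO libraries than in both NTC libraries. Klf4 missed in the fit on these groups alone (0.0582) and without a filter (0.113). The Klf4 call was lost without KO macrophage replicate 2 or 3 or NTC macrophage replicate 1 or 3, at adjusted p 0.123 to 0.208. The Spi1 call was lost without KO macrophage replicate 2 (-0.56, 0.0623) or NTC macrophage replicate 1 (-0.57, 0.113). Myb, at 0.98 (0.119), was called without KO macrophage replicate 2, at 1.47 (0.00704), on counts of 9.3 and 2.2 against 0. Neither value is an exact fold, and no bound is given since 2 of 3 KO libraries were at or below 3 counts. The macrophage sum was 6211, 7173 and 7017 CPM in KO and 10718 and 9566 in NTC, and the neutrophil lineage sum 72.0, 85.1 and 82.9 in KO and 16.4 and 11.2 in NTC. The border macrophage sum, nearly all Mrc1, was 59.7 to 90.1 CPM in KO and 628 to 766 in NTC, and the proliferation sum 167 to 176 in KO and 35.7 to 42.9 in NTC. The monocyte sum was 620 to 1425 CPM in KO and 1491 to 1864 in NTC. The part of these lists in the results was not tested. Of paralogs or partners 2 of 15 were higher (Ddit3 2.66, Mybl2 1.08) and 1 lower (Cebpg -0.58), and of the other factors 3 of 25 higher (Id1 2.92, Tfec 2.17) and 7 lower (Nr4a1 -2.86, Maf -2.66), at medians of 0.18 and 0.01.

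Whether differentiation itself differed between NTC and sgRNA 1 cells was tested as an interaction. It takes NTC progenitors and NTC macrophages as one line, which the labels do not settle. By limma 0 of 7 members were called higher (9.84% of genes were) and 0 lower (3.72%), with 2 members and 3224 genes at an unadjusted p below 0.05 and a median of 0.10 beside 0.08. Spi1 was nearest, at -0.68 ± 0.21 (adjusted p 0.0556), followed by Cebpe at 1.25 ± 0.51 (0.130) and Myb at 1.21 ± 0.56 (0.182). Without NTC progenitor replicate 2 Spi1 was called at -0.76 (0.0476). It was also called on log2(CPM + 1) (-0.65, 0.0482), with quantile normalisation (-0.78, 0.0426) and with library weights (-0.77, 0.0321). On log2(CPM + 1) Cebpe was called as well, at 0.85 (0.0463). Without KO macrophage replicate 2 Myb was called at 1.70 (0.0184). Its KO macrophage counts were then 9.3 and 2.2, against 0 in NTC, so neither 1.21 nor 1.70 is an exact fold. Of the paralogs and partners 1 of 15 was higher (Ddit3 2.83) and 0 lower, with 3 at an unadjusted p below 0.05, and of the other factors 3 of 25 were higher (Id1 2.57, Tfec 2.25) and 6 lower (Nr4a1 -2.95, Egr2 -1.99), at medians of 0.15 and 0.00.

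In the set with brain cells, macrophages in vitro held little Gata2, Gfi1 and Myb. Gata2 was at 3.0 counts or fewer in BMD and ER-Hoxb8 macrophages, Gfi1 at 3.9 or fewer and Myb at 16 or fewer. Cebpe was -2.52, -1.99 and -0.45 in BMD macrophages and -0.31, -2.33 and -1.30 in ER-Hoxb8 macrophages, and Klf4 0.59, 0.56 and 0.94 against -1.70, 2.03 and 1.11. Cebpb was 1.49, 1.59 and 2.69 against 3.21, 2.85 and 2.84. Spi1 was 4.27, 4.41 and 4.07 against 3.95, 4.52 and 4.01, and Runx1 4.99, 5.60 and 4.30 against 4.52, 4.52 and 3.82. Only Cebpb kept the groups apart. ER-Hoxb8 against BMD macrophages gave 0 of 6 members higher (0.348% of 12647 genes) and 0 lower (1.62%), with 0 members and 1086 genes at an unadjusted p below 0.05 in limma, and a median of 0.12 beside 0.00. Cebpb was at 1.04 ± 0.58 (adjusted p 0.714). Runx3 (-3.62) was the 1 of 16 paralogs and partners called (3 at an unadjusted p below 0.05), and of the other factors 0 of 28 were (6 at an unadjusted p below 0.05), at medians of 0.15 and -0.30.

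Among cells from brain, levels of Cebpe and Myb were uneven. Cebpe in BMD MLC ran from 1.98 to 6.28 (median 5.92), with the 2 lowest in replicates 1 and 2. In ER-Hoxb8 MLC it was -0.29, -0.57 and -1.19 in the GFPHox libraries and 4.58, 6.40 and 3.69 in the WTHox libraries, with a gap between these series. In microglia it ran from -3.62 (a count of 0, in replicate 8) to 3.84 (median 1.60). Over the 27 libraries Cebpe followed the neutrophil lineage sum (r = 0.89). That sum was 7324, 4439, 28653, 33066, 33035 and 31211 CPM in BMD MLC and 407 to 5910 (median 1952) in microglia, with Ngp the most abundant in most libraries. Of the 10 genes 10 were above 3 counts in every BMD MLC library. The eosinophil sum, led by Prg2, was 560, 3522 and 360 CPM in WTHox and 10.6 to 36.1 in GFPHox. Their part in the Cebpe levels was not tested. The genes most like Cebpe were Slco4c1 (0.954), Ppp1r42 (0.942) and Ankrd22 (0.941).

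Myb in BMD MLC ran from -1.80 to 3.58 (median 2.90), with replicate 2 alone below 0. It ran from -3.62 to 1.81 (median -1.17) in ER-Hoxb8 MLC and from -2.55 to 1.55 (median -1.40) in microglia, so that 5 of 6 BMD MLC libraries were above every microglia library. Gfi1 was at 2.31 in BMD MLC replicate 3 and at 0.17 or less in the other libraries of the set, and Gata2 at 2.04 (107.9 counts) in that same library and at 7.9 counts or fewer elsewhere. The mast cell and basophil sum was 165 CPM there, but it was 204 in ER-Hoxb8 MLC replicate 5 with Gata2 at 0 counts, and its part was not tested. Genes most like Myb over these libraries were 5430421N21Rik (0.813), Prom1 (0.782) and Gm10157 (0.752). Cebpa ranged from 0 to 64.4 counts in this set.

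Klf4 in BMD MLC ran from 2.66 to 5.14 (median 4.18), above every macrophage library in vitro. In ER-Hoxb8 MLC it was 0.92, -1.15 and 0.64 in GFPHox and 3.21, 3.08 and 5.97 in WTHox, and in microglia it ran from -2.83 (replicate 8) to 4.01 (median 2.50). Klf4 followed the neutrophil lineage sum less closely than Cebpe did (r = 0.66). Cebpb ran from 2.26 to 4.59 (median 3.01) in BMD MLC, 2.97 to 4.51 (3.93) in ER-Hoxb8 MLC and 0.69 to 2.77 (1.91) in microglia. ER-Hoxb8 MLC were above all 9 microglia libraries. Spi1 ran from 4.74 to 6.34 (5.32) in BMD MLC, 4.32 to 6.12 (5.18) in ER-Hoxb8 MLC and 4.84 to 6.81 (5.26) in microglia, and Runx1 from 5.31 to 6.34 (5.88), 4.66 to 6.32 (5.80) and 4.78 to 6.61 (5.63). For these last members the 3 kinds of brain cell overlapped throughout. The genes most like them were Serpinb10 (0.820), Pithd1 (0.819) and Kbtbd11 (0.811) for Klf4, Klra2 (0.812), Pim1 (0.784) and Pyhin1 (0.781) for Cebpb, Csnk1a1 (0.875), Ilkap (0.872) and Tsen34 (0.864) for Spi1, and Gm20257 (0.841), Sv2c (0.834) and Ube2d1 (0.829) for Runx1. Since the points share libraries and depth, these correlations are descriptions.

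**Figure D3:**
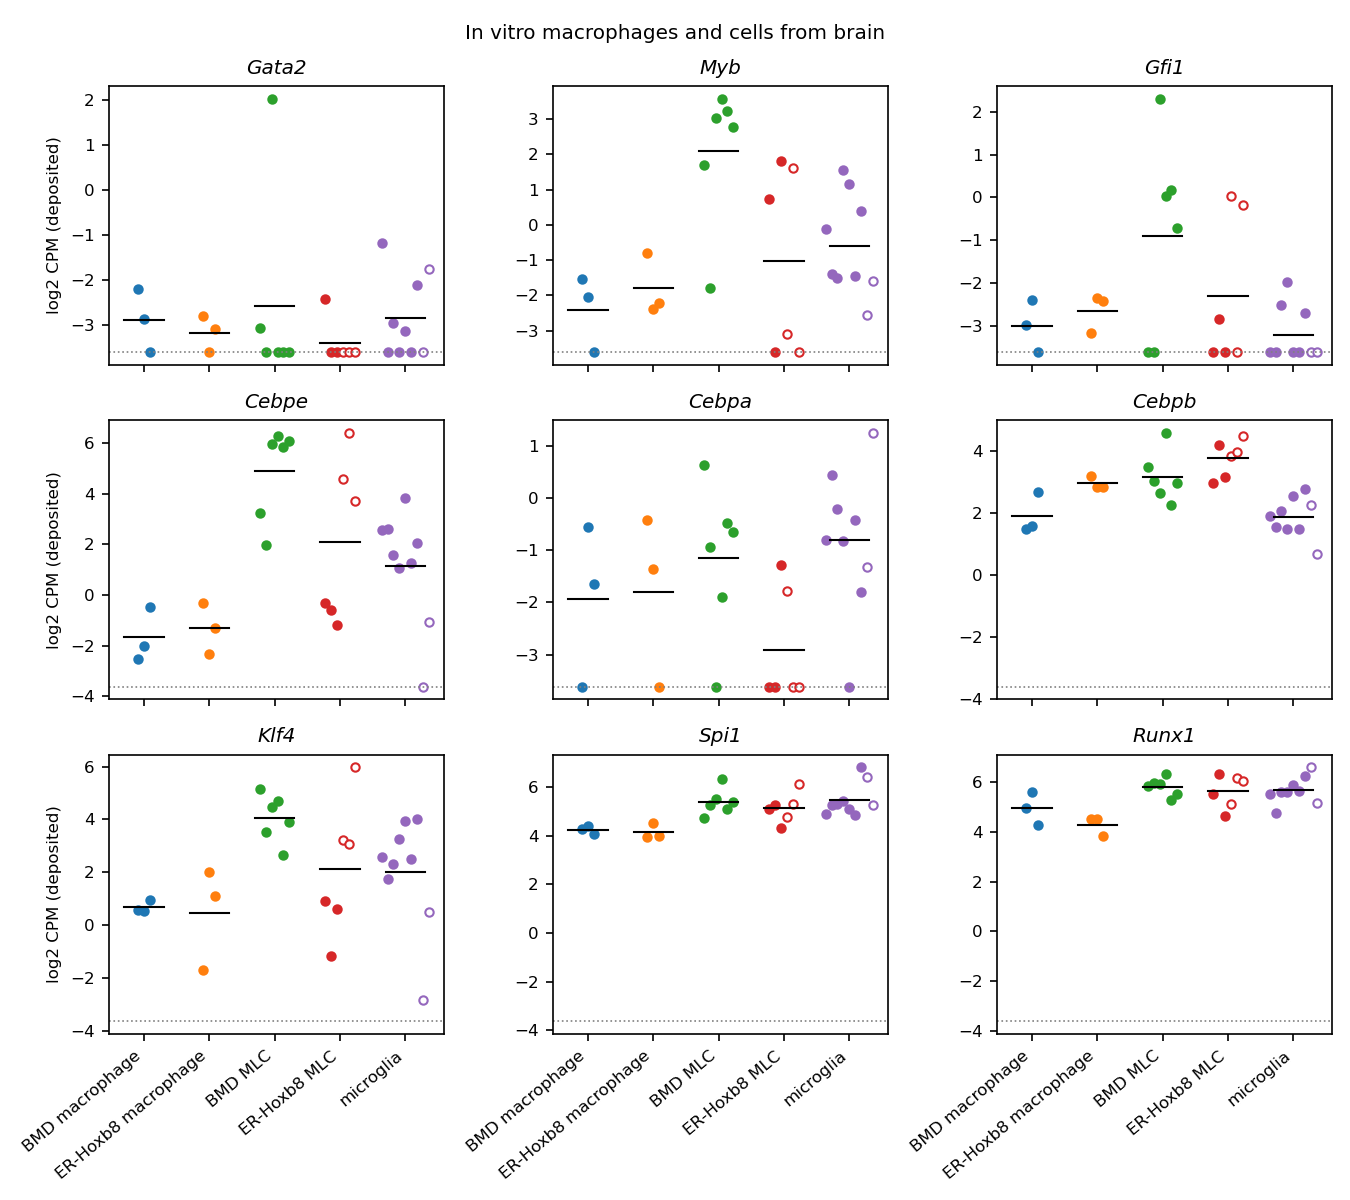
Level of each member (log2 CPM, y axis) in macrophages in vitro, microglia-like cells (MLC) and microglia, with a point for each library, a bar at the mean and a dotted line at a count of 0; hollow points are the WTHox libraries of ER-Hoxb8 MLC and the YSWT microglia. Cebpe and Klf4 split the ER-Hoxb8 MLC by series, while Spi1 and Runx1 overlap across the brain groups.

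**Figure D4:**
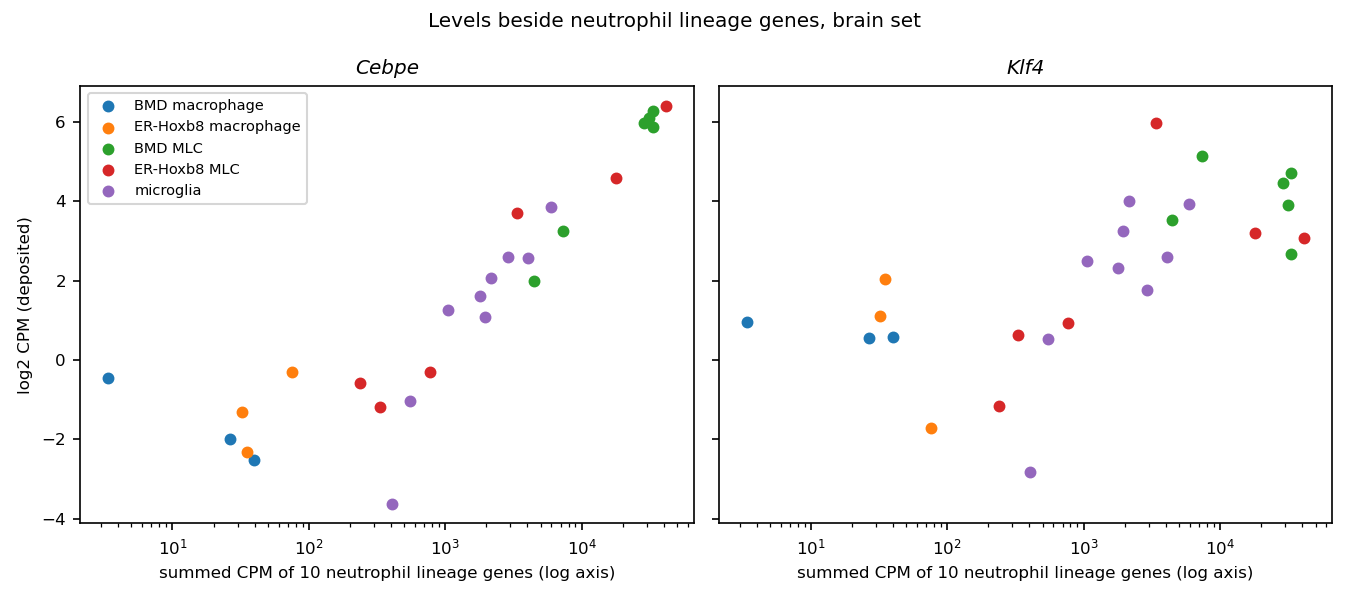
Levels of Cebpe and Klf4 (log2 CPM, y axis) against the summed CPM of 10 neutrophil lineage genes (log axis) in 27 libraries, coloured by group. The Cebpe points climb with the sum (r = 0.89) and the Klf4 points scatter more (r = 0.66).

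BMD MLC were compared with BMD macrophages, whose neutrophil lineage sum was 3.39 to 39.8 CPM against 4439 to 33066 in BMD MLC. The part of that list was not tested. Of 6 members tested 4 were higher (16.9% of genes) and 0 lower (13.8%), with 6 at an unadjusted p below 0.05 in limma and a median of 2.30 beside -0.01. Cebpe gave 6.56 ± 1.50 (adjusted p 0.00178), Myb 4.49 ± 1.25 (0.00809), Klf4 3.37 ± 1.26 (0.0441) and Spi1 1.1 ± 0.41 (0.0347). Cebpe, Klf4 and Spi1 were higher in 6 of 6 brain libraries than in any macrophage library, and Cebpe and Myb passed the filter through brain cells alone, so a rise of these over macrophages was built in. The Klf4 call was lost without any of BMD macrophage replicates 1 to 3 or BMD MLC replicates 1, 2, 3, 4 or 6, at adjusted p 0.0521 to 0.112. The Spi1 call was lost without BMD macrophage replicate 1, 2 or 3 or BMD MLC replicate 3 or 4 (0.0535 to 0.124), and the Myb call without BMD macrophage replicate 3 (3.89, 0.0610). Cebpb (1.24, 0.0591) was called without BMD macrophage replicate 3 (1.63, 0.0433) or BMD MLC replicate 5 (1.42, 0.0367), and Runx1 (0.86, 0.0879) without BMD macrophage replicate 2 (1.17, 0.0458). Among paralogs and partners, 7 of 16 were higher (Cbfa2t3 5.62, Runx3 3.55) and 0 lower, with 9 at an unadjusted p below 0.05, and of the other factors 8 of 28 higher (Nfe2 5.39, Sox4 3.85) and 5 lower (Nr1h3 -5.62, Pparg -3.71), at medians of 1.50 and 0.58.

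ER-Hoxb8 MLC against ER-Hoxb8 macrophages gave 1 of 6 members higher (16.6% of genes) and 0 lower (18.1%), with 3 at an unadjusted p below 0.05 in limma and a median of 1.18 beside -0.15. Runx1 rose by 1.37 ± 0.38 (adjusted p 0.00745), higher in 6 of 6 brain libraries, and missed without ER-Hoxb8 macrophage replicate 3 (1.13, 0.0556). Cebpe (3.42 ± 1.50, 0.0771) and Spi1 (0.99, 0.0605) missed. Cebpe passed the filter through brain cells alone here too, so a rise was built into each of its values below. With the WTHox libraries only, a comparison chosen after seeing the data, 4 were called: Cebpe at 6.21 (0.00188), Klf4 at 3.61 (0.0308), Spi1 at 1.24 (0.0426) and Runx1. With the GFPHox libraries only 1 was called, Runx1 at 1.22 (0.0416), while Cebpe was at 0.63 (0.774) and Klf4 at -0.34 (0.869). The shares of all genes, here and below, belong to the fits on all libraries and not to such refits. Shares in these refits are not given, so their counts and p-values describe the split and are no test of it. Cebpe was also called without GFPHox replicate 1 (3.90, 0.0487), 2 (3.95, 0.0486) or 3 (4.08, 0.0348), and Spi1 without replicate 3 (1.15, 0.0299). Of paralogs or partners 8 of 16 were higher (Runx3 7.00, Cbfa2t3 4.63) and 0 lower, with 9 at an unadjusted p below 0.05, and of the other factors 9 of 28 higher (Batf3 6.04) and 4 lower (Pparg -5.61, Nr1h3 -3.77), at medians of 1.38 and 0.65.

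Each kind of MLC was set against the same microglia libraries. For BMD MLC 3 of 6 members were higher (10.8% of genes) and 0 lower (9.54%), with 4 at an unadjusted p below 0.05 in limma and a median of 1.68 beside 0.06. Cebpe gave 3.75 ± 1.12 (adjusted p 0.0161), Myb 2.70 ± 0.93 (0.0393) and Cebpb 1.30 ± 0.37 (0.0121), and groups overlapped for each. With the YSWT libraries left out, a choice made after seeing the data, 1 was called, with Cebpe at 2.76 (0.0553) and Myb at 2.29 (0.104). The Myb call was also lost without BMD MLC replicate 1, 3, 4, 5 or 6 or microglia replicate 2, 3, 6, 8 or 9, at adjusted p 0.0577 to 0.0975, and the Cebpb call without BMD MLC replicate 4 (1.02, 0.0530). For ER-Hoxb8 MLC 1 of 6 was higher (14.9%) and 0 lower (18.9%), with 1 at an unadjusted p below 0.05 and a median of 0.04 beside -0.10. This was Cebpb, at 1.92 ± 0.37 (0.000196), higher in 6 of 6 libraries, and it was called without any single library as well. With the WTHox libraries only, Cebpe joined it at 3.74 (0.0145). With the GFPHox libraries only, Cebpe was at -1.84 (0.260) and Klf4 at -1.87 (0.197), below microglia and not called. Other lists differed between these groups as well: the monocyte sum was 559 to 1538 CPM in BMD MLC, 224 to 7577 in ER-Hoxb8 MLC and 18.1 to 122 in microglia, the border macrophage sum 1363 to 2194, 2.16 to 888 and 9.07 to 93.0, and the proliferation sum 45.1 to 159, 132 to 815 and 21.7 to 78.1. Over the 27 libraries Cebpb correlated with the macrophage sum at r = -0.64 and with the proliferation sum at 0.50, and the part of these lists was not tested. For BMD MLC the paralogs and partners called were 5 of 16 higher (Runx3 6.32, Spic 4.58) and 1 lower (Klf3 -0.96), and the other factors 3 of 28 higher (Id1 3.45, Nfe2 3.36) and 4 lower (Sox4 -3.18, Egr1 -3.05), at medians of 0.42 and -0.01. For ER-Hoxb8 MLC they were 5 higher (Runx3 6.15, Runx2 2.93) and 2 lower (Klf3 -1.45, Cebpg -0.90), and 5 higher (Id1 3.20, Id2 1.88) and 7 lower (Sox4 -5.43, Irf4 -2.44), at medians of 0.84 and -0.13.

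ER-Hoxb8 MLC were compared with BMD MLC directly. Of 6 members 0 were higher (6.87% of genes) and 1 lower (8.22%), with 2 at an unadjusted p below 0.05 in limma and a median of -1.10 beside -0.22. Myb was at -3.11 ± 1.02 (adjusted p 0.0391), with overlap between the groups. This call was lost without BMD MLC replicate 1, 3, 4, 5 or 6 or ER-Hoxb8 MLC replicate 2, 4 or 6, at adjusted p 0.0564 to 0.0963. It was also lost in the fit on these groups alone (0.114), without a filter (0.0665) and with quantile normalisation (0.0631). For Myb 3 of 6 ER-Hoxb8 MLC libraries were at or below 3 counts. Cebpe was at -2.80 ± 1.22 (0.127) and was called without ER-Hoxb8 MLC replicate 5 (-3.66, 0.0399). With the GFPHox libraries only, Cebpe was at -5.59 (0.00260) and Klf4 at -3.93 (0.0161), while Myb missed at -2.44 (0.176). With the WTHox libraries only, Cebpe was at -0.01 (0.998), Klf4 at 0.02 (0.995) and Myb, the 1 member called, at -3.78 (0.0279). The lowest and median Myb levels in WTHox were -3.62 (a count of 0) and -3.08. Both lie below the level of 3 counts, so -3.78 is no exact fold. The interaction, which tests whether the change from macrophage to brain differed between the sources, called 0 of 6 higher (2.18% of genes) and 0 lower (1.05%), with 1 member and 1936 genes at an unadjusted p below 0.05 and a median of -1.08 beside -0.20. The calls that one source passed and the other missed are therefore not shown to differ in this fit. Cebpe, at -3.14 ± 2.12 (adjusted p 0.534) in the interaction, was called at -5.33 (0.00464) when each library was given a weight. Between the MLC, Spic (-4.22) was the 1 of 16 paralogs and partners called, and of the other factors 4 of 28 were higher (Egr1 3.70, Batf3 1.53) and 1 lower (Sox4 -2.25), at medians of 0.08 and -0.21. In the interaction Runx3 (3.45) was the 1 paralog or partner called and Id2 (3.56) the 1 other factor, at medians of -0.41 and 0.09.

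With baricitinib, Klf4 at 0 uM was 2.39, 1.98 and 1.76 in NTC macrophages and -0.24, 0.94 and 0.17 in KO macrophages. At 10 uM it was 1.61, 1.84 and 1.87 in NTC and 1.99, 2.33, 1.68 and 1.88 in KO. The lines were apart without the drug and overlapped at the highest dose. Between these doses KO libraries gave 1.25, 1.15 and 1.02 at 0.0006 uM, 1.53, 1.62 and 0.77 at 0.016 uM and 2.52, 3.90 and 2.20 at 0.4 uM, where 3.90 is the replicate with high Adar. NTC libraries stayed between 1.84 and 2.54 at those doses. Cebpe was 1.66, 0.42 and 0.39 in NTC and -1.20, -0.88 and -0.10 in KO at 0 uM, and -0.03, 0.72 and -0.47 in NTC and 0.47, 0.78, 1.37 and 0.33 in KO at 10 uM. Cebpb was 2.83, 3.06 and 3.68 in NTC and 3.07, 3.26 and 3.73 in KO at 0 uM, and 3.43, 3.34 and 3.50 in NTC and 4.67, 4.30, 4.39 and 4.40 in KO at 10 uM. The KO libraries at 10 uM were the 4 highest for Cebpb in the set. Runx1 was 5.26, 5.26 and 4.55 in NTC and 4.82, 4.79 and 4.40 in KO at 0 uM and rose to 5.19, 5.28, 5.27 and 5.11 in KO at 10 uM. Spi1 kept within 3.71 to 4.71 in all 33 libraries, and Gata2, Gfi1 and Myb were at 10.4 counts or fewer at 0 and 10 uM.

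**Figure D5:**
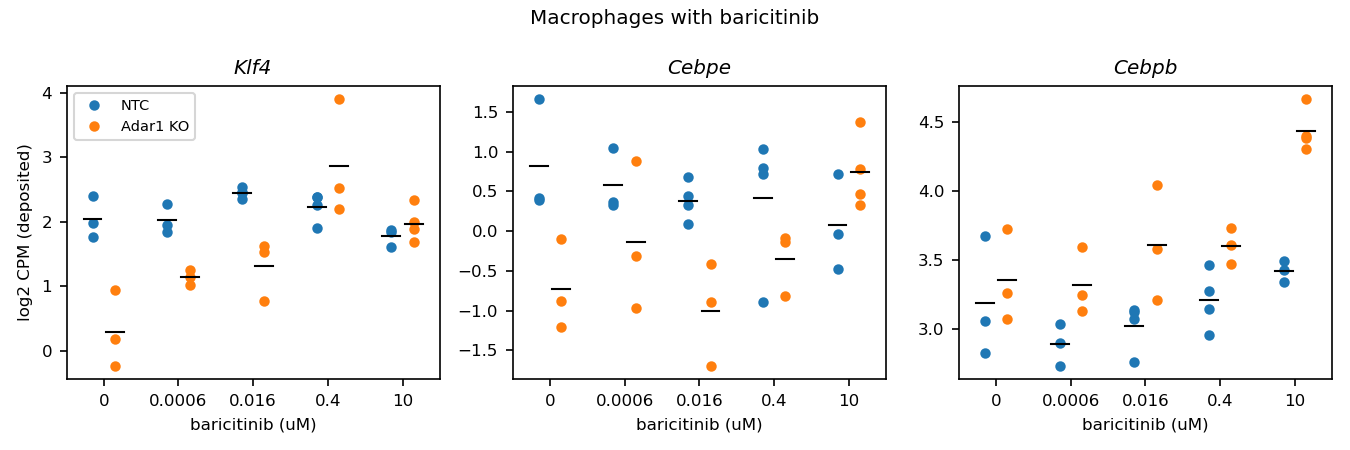
Levels of Klf4, Cebpe and Cebpb (log2 CPM, y axis) in NTC and Adar1 KO macrophages at each baricitinib dose (uM, x axis), with a point for each library and a bar at the mean. Klf4 in KO cells climbs from -0.24 to 0.94 at 0 uM to between 2.20 and 3.90 at 0.4 uM and lies at 1.68 to 2.33 at 10 uM. Cebpb in KO cells at 10 uM lies at 4.30 to 4.67.

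KO against NTC at 0 uM gave 0 of 6 members higher (11.4% of 11339 genes) and 2 lower (13.6%), with 4 at an unadjusted p below 0.05 in limma and a median of -0.95 beside -0.03. Klf4 was at -1.75 ± 0.32 (adjusted p 0.000184) and Cebpe at -1.55 ± 0.50 (0.0237), each lower in 3 of 3 KO libraries. In the other set KO against NTC macrophages gave Klf4 -1.18 (0.0448) but Cebpe 0.12 (0.862), and Spi1, called there at -0.63 (0.0158), was at -0.08 (0.837) here. Cebpe lost its call without NTC replicate 1 (-1.14, 0.144) or KO replicate 1 (-1.32, 0.106) or 2 (-1.48, 0.0684). It also missed in the fit on these groups alone (0.0635). Runx1 (-0.35, 0.136) was called without NTC replicate 3 (-0.59, 0.0141), when Cebpa was too (adjusted p 0.0358), on counts of 10.6 and 15.9 against 0 in all 3 KO libraries. These Cebpa counts are few steps, each worth 5.2 to 5.5 counts. The monocyte sum was 626 to 690 CPM in KO and 1114 to 1404 in NTC, and the proliferation sum 131 to 174 in KO and 383 to 570 in NTC, and their part in these results was not tested. Of the paralogs and partners 1 of 15 was higher (Ddit3 2.89) and 2 lower (Mybl2 -1.58, Cebpg -1.04), and of the other factors 4 of 24 higher (Tfec 3.09, Nr4a1 1.66) and 2 lower (Egr1 -1.59), at medians of -0.27 and 0.06.

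The effect of 10 uM was read in each line, from the same untreated libraries. In NTC 0 of 6 members were higher (5.77% of genes) and 0 lower (7.81%), with 0 members and 3192 genes at an unadjusted p below 0.05 in limma, and a median of -0.21 beside -0.01. In KO 4 of 6 were higher (33.5%) and 0 lower (31.6%), with 4 at an unadjusted p below 0.05 and a median of 0.81 beside 0.05. Klf4 rose by 1.68 ± 0.30 (adjusted p 2.19e-05), Cebpe by 1.47 ± 0.47 (0.00782), Cebpb by 1.09 ± 0.20 (2.49e-05) and Runx1 by 0.54 ± 0.16 (0.00428). For each of them 4 of 4 treated libraries were above all 3 untreated ones. Whether the drug effect differed between the lines was not tested. In KO the monocyte sum went from 626 to 690 CPM untreated to 1712 to 2291 treated, and the proliferation sum from 131 to 174 to 1823 to 2683. The macrophage sum fell from 6188 to 6796 CPM untreated to 3472 to 4166 treated. These sums moved the same way in NTC, the monocyte sum from 1114 to 1404 CPM to 2087 to 2316, the proliferation sum from 383 to 570 to 939 to 1489 and the macrophage sum from 6074 to 6235 to 4818 to 5210. Their part was not tested. In NTC the paralogs and partners called were 0 of 15 (1 at an unadjusted p below 0.05) and the other factors 3 of 24 higher (Maf 1.06, Tfec 1.05) and 5 lower (Egr2 -2.11, Nr1h3 -2.02), at medians of -0.06 and -0.18. In KO they were 7 of 15 higher (Runx3 3.02, Mybl2 2.00) and 3 lower (Ddit3 -3.52, Gata3 -1.24), and 6 of 24 higher (Maf 2.38) and 13 lower (Nr1h3 -3.21, Nr4a1 -2.78), at medians of 1.21 and -0.45.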

How the data were processed

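The submitters' notes name FastQC, MultiQC, kallisto 0.46.0, edgeR and limma, with the mouse build GRCm39. The values deposited by the authors are log2 CPM of estimated counts after TMM normalisation with a prior count of 2. From them CPM and counts were computed by inverting that formula. Here Python 3.11.15 with numpy 2.4.6, pandas 2.3.3 and matplotlib 3.10.9 and R 4.3.3 with limma 3.58.1 were used.

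The table holds 29957 lines, and the 1 without a gene name (0.00226 to 0.0585% of a library) was left out. Sets of columns were told by their lowest value, -4.34, -3.62, -3.43, -3.56, -2.78 and -3.09 in the order given in the results. Effective depth, which is depth scaled by the TMM factor and so not the depth given in the results, was read from the smallest steps and from that lowest value, with means of 43.0 and 40.6 M in the first set, 24.6 and 24.5 M in the second, 23.2 and 23.6 M in the sgRNA 2 set and 13.7 M by both in the baricitinib set. They parted in the set of NTC and sgRNA 1 (26.2 and 21.5 M) and in the lone library (20.0 and 17.1 M), and the cause was not tested. A bound on a fold took 3 counts for any library at or below that number, so it covers counting error only.

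A limma model with a mean-variance trend was fitted to all groups of a set, and p was adjusted by Benjamini-Hochberg over the genes tested. Members not tested for low values were Cebpa in the marrow set, Gata2, Gfi1 and Cebpa in the brain set, Gata2 and Cebpa in the guide sets, and Gata2, Myb and Gfi1 in the baricitinib set. Pairing was checked by correlating residuals of the same replicate number. Only ER-Hoxb8 progenitors and day 4 cells matched, at r = 0.23, 0.37 and 0.43, and they come from 3 independent lines. Other groups share a number alone.

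The members, and lists of 20 paralogs and partners, 30 other myeloid transcription factors and cell type markers, were chosen with earlier results of these data known. From each of the first 2 lists the text names up to 2 genes called with the highest and 2 with the lowest log2FC. A gene of the second list and a marker list for microglia are not reported here. Genes most like a member are the 3 with the highest Pearson r over the libraries of a set.

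Limits are as follows. Bulk RNA does not tell apart cell types that carry the same factor. Brain cells differ from cultured cells in sorting and depth as well as in place. NTC macrophages enter the tests with 2 libraries. RNA does not measure protein or DNA binding. Time in culture and M-CSF go together in each differentiation. Guides were not compared across sets, and baricitinib doses between 0 and 10 uM are described without a test.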

Additional observations from a re-analysis of the deposited data

Results flagged for a closer look

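Values far from the rest of their group were sought in 52 pairs of a gene and a group, and 4 were found. Chance alone would bring up about 1 in 20 if values were normally distributed. Groups with several libraries at or near a count of 0 were kept, and for these that rate does not hold. Gata2 in BMD MLC replicate 3 was 2.04 with the nearest library at -3.06, and that library also held a mast cell and basophil sum of 165 CPM, though ER-Hoxb8 MLC replicate 5 held 204 with Gata2 at 0 counts. Myb in BMD MLC replicate 2 was -1.80 with the nearest at 1.71. Cebpe in NTC macrophages at 0.4 uM was -0.89 in replicate 4 with the nearest at 0.72. Cebpa in KO macrophages at 10 uM was -0.88 in replicate 4, which is 1 step above a count of 0, with the nearest at -2.78, a count of 0. The causes were not tested.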

How the results depend on the processing

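Counts of called members were recomputed under other choices in 71 refits. The share of all genes called in each refit is not given below, so these counts stand without a background. No direction reversed for a member called before or after the change. The sign changed in 95 member values called in neither, such as Cebpe in ER-Hoxb8 MLC against microglia with GFPHox alone. Counts not given below stayed as in the results. Causes were not tested unless stated.

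Asking for a log2FC of at least 2 as well lowers counts by construction. It left 2 members for ER-Hoxb8 against BM progenitors, 4 for NTC, 3 for sgRNA 1 and 4 for sgRNA 2 macrophages against progenitors, 3 for BMD MLC against macrophages and 2 against microglia, and 0 each for KO against NTC macrophages, ER-Hoxb8 MLC against macrophages or microglia, KO against NTC at 0 uM and KO at 10 against 0 uM.

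Without a filter, ER-Hoxb8 against BM progenitors gave 3, macrophages against progenitors 8 in NTC, 7 in sgRNA 1 and 7 in sgRNA 2, KO against NTC macrophages 1, BMD MLC against macrophages 2, ER-Hoxb8 MLC against microglia 2 and ER-Hoxb8 against BMD MLC 0. With a mean CPM above 5, macrophages against progenitors gave 5 in NTC, 4 in sgRNA 1 and 4 in sgRNA 2, BMD MLC 3 against macrophages and 2 against microglia, KO against NTC macrophages 1, ER-Hoxb8 against BMD MLC 0, KO against NTC at 0 uM 0 and KO at 10 against 0 uM 2.

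On log2(CPM + 1) the interaction of guide and differentiation gave 2 and BM monocytes against progenitors 3. Quantile normalisation gave 1 for that interaction, 5 for ER-Hoxb8 against BM progenitors, 7 for sgRNA 2 macrophages against progenitors, 5 for BMD MLC against macrophages, 2 for ER-Hoxb8 MLC against macrophages, 1 for BMD MLC against microglia and 0 for ER-Hoxb8 against BMD MLC.

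Weights for each library gave 5 for BM monocytes against progenitors, 5 for ER-Hoxb8 against BM progenitors (with Myb, adjusted p 0.00832), 6 for BMD MLC against macrophages, 1 for the guide interaction, 1 for ER-Hoxb8 against BMD macrophages (Cebpb 1.37, adjusted p 0.0119), 3 for ER-Hoxb8 against BMD MLC and 1 for the brain interaction. Fitting only the groups compared gave 5 for BM monocytes, 2 for ER-Hoxb8 against BM progenitors, 5 for NTC macrophages against progenitors, 1 for KO against NTC macrophages, 0 for ER-Hoxb8 against BMD MLC and 1 for KO against NTC at 0 uM.

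With replicate number as a block, day 4 against ER-Hoxb8 progenitors, the paired comparison, stayed at 0. KO against NTC macrophages gave 1, ER-Hoxb8 against BMD MLC 2, sgRNA 2 macrophages against progenitors 7, and BMD MLC 3 against macrophages and 2 against microglia.

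The series of columns were separated after seeing the data. GFPHox alone gave 2 for ER-Hoxb8 against BMD MLC, WTHox alone 4 against macrophages and 2 against microglia, and WT microglia alone 1 for BMD MLC.

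Leaving out each library gave 1 to 2 members for BM monocytes, 2 to 5 for ER-Hoxb8 against BM progenitors, 0 to 3 for day 4, 6 to 7 for NTC, 6 to 7 for sgRNA 1 and 4 to 6 for sgRNA 2 differentiation, 0 to 2 for KO against NTC macrophages and 0 to 1 for the guide interaction. It gave 0 to 0 for ER-Hoxb8 against BMD macrophages, 2 to 5 for BMD MLC and 0 to 3 for ER-Hoxb8 MLC against macrophages, 1 to 3 and 1 to 1 against microglia, 0 to 2 between them and 0 to 0 for their interaction. With baricitinib it gave 1 to 4 for KO against NTC, 0 to 0 for NTC and 4 to 4 for KO. Where 1 NTC macrophage library remained, it was assumed to vary like the other groups.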

Other observations

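NTC macrophage replicate 2, in no test because its lowest value is its own, gave Klf4 2.33, Spi1 4.65, Runx1 4.35, Cebpb 2.05 and Cebpe -0.59, and 0 counts of Gata2, Myb and Gfi1.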
